A study of Mus musculus with 8 samples.

Results

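T cells without Cd4 or Cd8 transcripts were examined in single-cell RNA sequencing of the mouse periosteum, the connective tissue sheath of bone. They made up 200 of the 12253 kept cells, 104 of 6029 under normal diet (ND) and 96 of 6224 under high-fat diet (HFD). A barcode was kept if its detected genes numbered over 500 but under 8000, with less than 20% mitochondrial UMIs, a UMI (unique molecular identifier) being 1 counted RNA molecule. The members were chosen by their own UMI counts: a kept barcode entered the population with at least 3 UMIs summed over Cd3e, Cd3d and Cd3g, the invariant chains of the T cell receptor complex, and with no UMI of Cd4, Cd8a or Cd8b1. Barcodes with any UMI of Ncr1, a natural killer (NK) cell receptor, with 2 or more UMIs of Cd79a, a B cell receptor chain, or with 2% or more of their UMIs from the neutrophil genes S100a8 and S100a9 were left out. The cells are called DN cells below, which states a UMI count and not the absence of a surface protein. They came from male C57BL/6J mice at 16 weeks of age, which from the age of 4 weeks had been fed ND or an HFD with 60% fat by calories, 12 weeks in all. The labels list 4 replicates per diet. Left femurs and tibias were digested with collagenase and dispase, and the cells were captured with 10X Chromium chemistry. The authors deposited 1 pooled count matrix per diet in which barcodes are not assigned to mice, so each diet is 1 library and no test between diets was possible.

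Most T cells of the body carry an αβ receptor together with the CD4 or CD8 coreceptor. Cells that lack both coreceptors include γδ T cells, whose receptor pairs a δ with a γ chain and which respond without classical peptide presentation, as well as some innate-like αβ T cells. In bone, γδ T cells are known as a source of interleukin-17, and T cell products such as RANKL, interferon-γ and CD40 ligand act on osteoclasts and osteoblasts.

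The DN cells held 751262 UMIs in ND and 677157 in HFD, out of 48558889 and 49940976 UMIs in the libraries. The median DN cell carried 6119 UMIs and 1672.5 genes in ND, and 6354 UMIs and 1796 genes in HFD. Mitochondrial UMIs had a median of 1.99% and 1.85%. All other CD3-gated cells were divided by coreceptor into 130 ND and 86 HFD cells of a CD8 class and 19 and 11 cells of a CD4 class. A further 1 cell per library carried UMIs of both coreceptors. Of the CD3-gated cells, 40.9% were DN in ND (exact 95% interval 34.8 to 47.3, n = 254) and 49.5% in HFD (42.2 to 56.7, n = 194). Intervals given here cover counting error only, and these overlapped. The 2 libraries shared 15 barcodes, none of which was a DN cell in both.

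Just inside the threshold, 1 ND and 3 HFD cells had exactly 3 CD3 UMIs. Just outside it, 8 and 5 cells that met every other criterion had 2. The coreceptor limit was narrow for CD4: 14 of 19 ND and 7 of 11 HFD cells of the CD4 class had a single Cd4 UMI. In the CD8 class, 27 of 130 and 10 of 86 cells had a single Cd8a or Cd8b1 UMI, with a median of 5 in both libraries. Both of the deepest members were ND cells that stood apart. A Trac-only cell held 97306 UMIs, including 433 of Car1, an erythroid carbonic anhydrase. The other, without Trac or Trdc UMIs, held 20906 UMIs, including 679 of Col1a1, the bone collagen chain. All other DN cells held fewer than 20000 UMIs. Values below include these 2 cells unless stated otherwise. Without them the ND total was 633050 UMIs, so ratios of HFD over ND lie lower for genes that they lack.

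**Figure D1:**
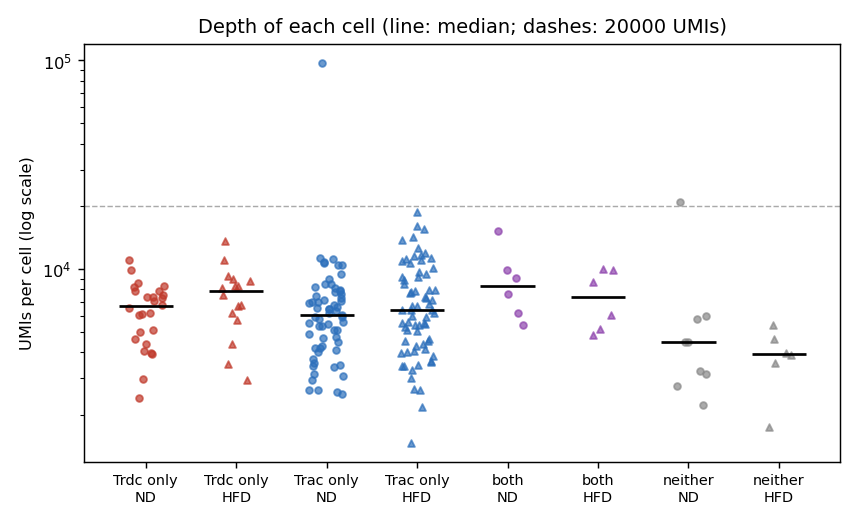
UMIs per DN cell (log axis) for cells with Trdc only, Trac only, both or neither, by library (ND, HFD), 1 point per cell, with a dashed line at 20000 UMIs. The 2 ND cells above the line hold 97306 and 20906 UMIs, and the other 198 cells lie below it.

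The name of the population was checked against its markers. Il7r, the interleukin-7 receptor chain, was detected in 59 of 104 ND and 55 of 96 HFD cells. Trdc, the δ constant chain at chr14:54142851-54148868 (mm10, plus strand), was detected in 32 ND cells (30.8%) and 22 HFD cells (22.9%). Trac, the α constant chain further downstream at chr14:54220521-54224206, was detected in 69 (66.3%) and 74 (77.1%), so that most members had Trac transcripts at the depth sequenced. Nor did the absence of Cd4 UMIs separate out cells with genes of the CD4 lineage. Cd40lg, the CD40 ligand of helper T cells, or Foxp3, the factor of regulatory T cells, was detected in 49 CD3-gated cells, of which 34 were DN, 12 in the CD4 class and 3 in the CD8 class. CD8 transcripts were detected less completely gene by gene than together, since 133 of the 185 CD3-gated cells with Cd8b1 also had Cd8a. The members are therefore described by their rule and not as a single cell type.

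By Trdc against Trac, the DN cells fell into 4 subsets. Cells with Trdc and no Trac UMI numbered 26 in ND and 16 in HFD, which is 25% (17.03 to 34.4) and 16.7% (9.84 to 25.6) of DN cells. Cells with Trac and no Trdc UMI numbered 63 and 68, which is 60.6% (50.5 to 70.0) and 70.8% (60.7 to 79.7). Both transcripts were found in 6 cells of each library, and neither in 9 and 6. The intervals of ND and HFD overlapped for each subset. These shares depended on depth. With each cell thinned to 1000 UMIs before selection, in a single random draw, Trdc-only cells were 14 of 61 in ND and 3 of 46 in HFD. These are 23.0% (13.2 to 35.5) and 6.52% (1.37 to 17.9) of the cells selected, and the intervals overlapped. Trac-only cells were then 32.8% and 41.3%, and cells with neither transcript 44.3% and 50%. Of all CD3-gated cells, the Trdc-only subset was 10.2% (6.80 to 14.6) in ND and 8.25% (4.79 to 13.05) in HFD.

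**Figure D2:**
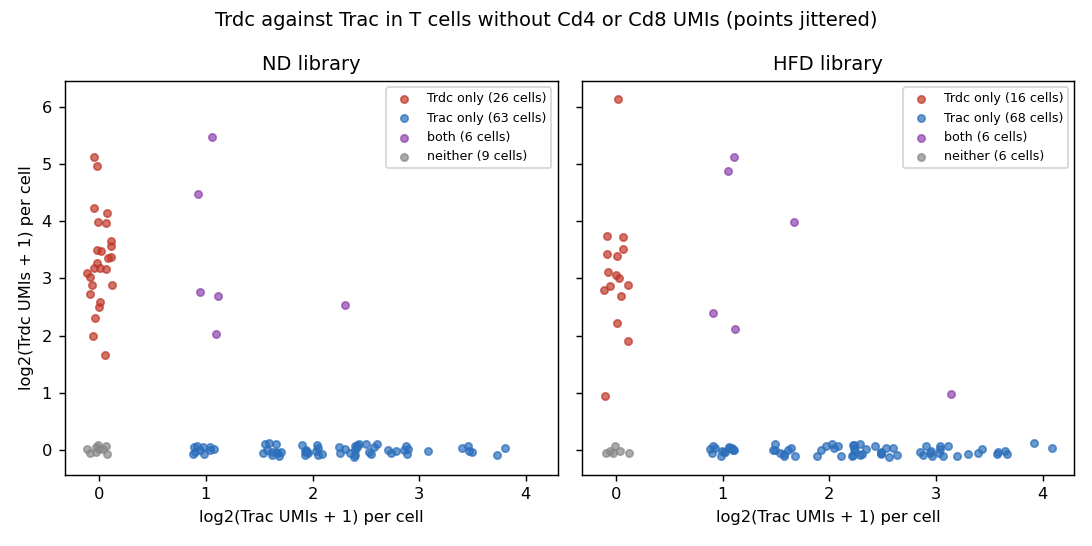
Trdc against Trac UMIs, each as log2(UMIs + 1), in every DN cell of the ND (n = 104) and HFD (n = 96) library. Most cells lie along one axis or the other, and 6 cells per library carry both transcripts.

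The counts behind the subsets are a description, since the subsets were defined by them. The Trdc-only cells had a median of 8.5 Trdc UMIs in ND (2 to 33) and 7 in HFD (1 to 66), while the Trac-only cells had a median of 3 Trac UMIs in ND (1 to 14) and 4 in HFD (1 to 16). Among B cells, which should lack it, Trdc was detected in 2 of 1553 ND cells (0.129%, median 3880 UMIs) and 2 of 1508 HFD cells (0.133%, median 3830.5 UMIs). It was found in 5 of 130 and 3 of 86 CD8-class cells, and in 0 of 19 and 0 of 11 CD4-class cells, which allows shares of up to 15.8% and 27.3%. NK cells, taken here as Ncr1-positive cells with fewer than 3 CD3 UMIs, carried Trdc in 22 of 94 (23.4%) and 23 of 76 (30.3%) cells, so a Trdc UMI alone does not establish a γδ receptor. The summed level of Trdc over all NK cells was 57.8 UMIs per 1000000 in ND and 66.8 in HFD.

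The other receptor genes followed the same division in part. A UMI of a γ constant gene (Tcrg-C1, Tcrg-C2 or Tcrg-C4, on chromosome 13) was present in 33 of 42 Trdc-only cells and in 30 of 131 Trac-only cells. It was also present in 11 of 12 cells with both transcripts and in 2 of 15 with neither. δ variable segments were seen in 11 of 26 Trdc-only ND cells and 3 of 16 HFD cells, against 2 of 63 and 1 of 68 Trac-only cells. Of these, Trdv4 lies at chr14:54074905-54075515, ahead of Trdc, and was also detected in 17 of 94 and 12 of 76 NK cells. α variable segments were seen in 16 of 63 and 19 of 68 Trac-only cells and in 2 of 26 and 4 of 16 Trdc-only cells. Every one of the 200 DN cells carried a UMI of Trbc1 or Trbc2, the β constant chains on chromosome 6, whose near-identical sequences cannot be told apart with certainty. Trbc transcripts thus did not divide the population.

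In both subsets, transcripts shared by effector T and NK cells were frequent. Ccl5, a chemokine of effector T and NK cells, was present with at least 5 UMIs in 129 of 200 DN cells, in 127 of which Nkg7, a cytotoxic granule protein, was also detected. Those 127 cells comprised 33 of 42 Trdc-only, 80 of 131 Trac-only and 11 of 12 double-positive cells, but 3 of 15 cells with neither receptor transcript. The last subset was also shallower, with a median of 4487 UMIs in ND and 3931 in HFD. Klrd1 (CD94) or Klra7 (an inhibitory Ly49 receptor) was detected in 109 cells, Ly6c2 in 126 and Klrb1c (NK1.1) in 52. Granule transcripts were sparse, with 31 UMIs of Gzma, 22 of Gzmb and 46 of Prf1 (perforin) over all 200 DN cells, against 6465, 657 and 666 in NK cells. Transcripts of recirculating T cells were found in the same population, with Lef1 or Ccr7 in 118 cells and Il7r in 114. Mki67, a proliferation marker, was detected in 10 cells. As a background, any UMI was found among 1553 ND and 1508 HFD B cells in 86 and 68 for Ccl5, in 42 and 38 for Nkg7 and in 13 and 18 for Klrd1.

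A small set of Trdc-positive cells carried genes of interleukin-17-producing T cells instead. Il17a, Blk, Sox13, Cd163l1 or Il23r was detected in 6 of 42 Trdc-only cells, 0 of 131 Trac-only cells, 1 of 12 with both transcripts and 0 of 15 with neither. This set of 5 genes was chosen after values had been seen. At least 2 of the genes were detected in 5 Trdc-only cells and in 1 cell with both transcripts, and Ccl5 was at 0 in all 6 of these. They are shown cell by cell because the summed values hide them. One ND cell held 30 UMIs of Il17a with 8 of Trdc, 5 of Cd163l1 and 8 of Tcrg-C1. Another held 1 UMI of Il17a with 7 of Trdv4 and 6 of Mki67. Of the remaining ND cells, one held 1 UMI of Cd163l1 with 17 of Trdc, 5 of Areg and 13 of Il7r, and the last held 2 of Blk with 6 of Tcrg-C2. The HFD cell with 66 Trdc UMIs held 12 of Trdv4, 11 of Cd163l1 and 28 of Mki67, and the double-positive HFD cell held 30 of Trdc, 1 of Trac and 9 of Cd163l1. Thus all 31 Il17a UMIs of the DN cells came from 2 ND cells, and 0 were found in the 96 HFD cells, which allows a share of up to 3.12% of cells with a UMI.

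Trac-only cells included a group with helper and regulatory transcripts. Cd40lg or Foxp3 was detected in 28 of 131 Trac-only cells and 5 of 15 with neither transcript, but in 1 of 42 Trdc-only cells. Foxp3 was found in 11 Trac-only cells and in 0 of 42 Trdc-only cells, which allows a share of up to 7.14% of cells with a UMI. Tnfrsf4 (OX40), a costimulatory receptor of activated and regulatory T cells, was found in 21 and 0. Areg, the growth factor amphiregulin, was detected in 14 Trac-only and 2 Trdc-only cells, and 5 of the 14 also had Foxp3. Il4 was detected in 1 ND cell with 6 UMIs and in 2 HFD cells with 16 and 3 UMIs, all Trac-only.

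Trdc-only and Trac-only cells were compared gene by gene on UMIs summed per library and subset, with edgeR's quasi-likelihood test, the library as a block, and Benjamini-Hochberg adjustment over all genes. The libraries, 1 of each diet, were the only samples. The p-values weigh a difference against how far class differences varied between the libraries. That spread was estimated from all classes fitted together, the CD4-class, CD8-class and NK cells included. Of 5864 genes, 20 differed at an adjusted p below 0.05 (0.341%), 15 higher (0.256%) and 5 lower (0.0853%) in Trdc-only cells. Without the cells above 20000 UMIs in any class, 29 of 5537 passed (0.524%), 19 higher and 10 lower. Among the receptor genes, Tcrg-C1 stood at 132 UMIs per 1000000 in ND and 150 in HFD in Trdc-only cells, against 2.09 and 10.2 in Trac-only cells (log2 fold change 4.37 ± 0.64 SE, adjusted p = 0.00255). Tcrg-C2 stood at 174 and 216 against 29.3 and 49.1 (2.24 ± 0.39, adjusted p = 0.0107). The Tcrg-C copies are similar in sequence and their reads may be split uncertainly. Of the δ segments, Trdv4 had 23 UMIs in Trdc-only and 1 in Trac-only cells, a ratio of 77.6 with a counting interval of 12.6 to 3196 (adjusted p = 0.00619). The 23 UMIs lay in 5 cells, and 2 of these held 19.

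The chemokines Ccl3 and Ccl4 were higher in Trdc-only cells. Ccl3 stood at 204 UMIs per 1000000 in ND and 308 in HFD, against 35.5 and 61.3 in Trac-only cells (2.32 ± 0.29, adjusted p = 0.000555). Ccl4 stood at 1525 and 466 against 328 and 143 (1.95 ± 0.28, adjusted p = 0.00195). In both libraries the Trdc-only value lay above the Trac-only value, although Ccl4 differed more between libraries than Ccl3. Ccl3 was carried by few cells, 6 of 26 and 3 of 16 Trdc-only cells and 5 of 63 and 4 of 68 Trac-only cells. Of the 24 type 1 and cytotoxic genes tested, these 2 were called, and the list had a median log2 fold change of 0.60 against −0.05 over all genes.

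Trdc-only cells also had more RNA of S100a4, S100a6, Lgals1, Crip1 and Lmna, which encode calcium-binding, galectin, LIM-domain and nuclear lamina proteins and are abundant in effector and tissue T cells. S100a4 stood at 444 and 507 against 96.2 and 85.9 UMIs per 1000000 (2.30 ± 0.33, adjusted p = 0.00195), and S100a6 at 1291 and 1797 against 493 and 611 (1.39 ± 0.22, adjusted p = 0.00315). The other 3 had log2 fold changes of 1.55, 1.12 and 2.05. Tyrobp (DAP12), the signaling adaptor of NK receptors, stood at 432 and 1006 against 136 and 266 (1.73 ± 0.36, adjusted p = 0.0377), and Cd7 at 420 and 699 against 109 and 254 (1.54 ± 0.33, adjusted p = 0.0447). Tyrobp also marks NK cells, where it stood at 3164 and 3313. Of the NK list, Ncr1 was at 0 by the rule and Gzma was at 0 in Trdc-only cells of both libraries, while Klra8 and Klra4 were at 0 in ND Trdc-only cells. The list was detected with 6 of 10 genes in ND and 8 of 10 in HFD Trdc-only cells, at 1117 and 2412 UMIs per 1000000, against 577 and 1061 in Trac-only cells. The part of NK cells in the result was not tested.

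Lower in Trdc-only cells were Tnfrsf4, Cd81, Ms4a4c, Ifi27l2a and Trbc2. Tnfrsf4 had 0 UMIs in 42 Trdc-only cells and 69 in Trac-only cells, at least 6.82-fold lower (3 UMIs over the group being the limit at 0, adjusted p = 0.00894). Ifi27l2a, an interferon-inducible gene, stood at 66.1 and 74.9 against 176 and 589 UMIs per 1000000 (−2.44 ± 0.51, adjusted p = 0.0377). Trbc2 stood at 943 and 424 against 1368 and 1713 (−1.22 ± 0.26, adjusted p = 0.0385). Cd81, a tetraspanin gene, had 0 against 59 UMIs, at least 5.83-fold lower (adjusted p = 0.017). Of its 34 UMIs in ND Trac-only cells, 4 lay outside the 97306-UMI cell, and without the cells above 20000 UMIs it stayed lower but did not pass (adjusted p = 0.275). None of 14 naive and recirculating genes, 10 tissue residency genes or 5 type 2 genes passed the test, with list medians of −0.14, 0.56 and −1.48. Markers of other cell types were compared in the same way. None of 8 monocyte genes (median −4.59), 5 erythroid genes (−1.30) or 4 B cell genes (−0.97) tested had a log2 fold change above 0, and none passed. Genes at 0 in Trdc-only cells could only lie below 0, so the signs and fitted medians decide nothing for them. The monocyte list stood at 72.1 and 83.2 UMIs per 1000000 against 83.6 and 601 in Trac-only cells, led by Lyz2 in all but the HFD Trdc-only cells, with Csf1r and Cd14 at 0 in Trdc-only cells. The erythroid list stood at 204 and 299 against 2137 and 184, led by Car2 in Trdc-only cells, and the ND Trac-only value was 189 without the 97306-UMI cell. The B cell list stood at 306 and 150 against 215 and 354, led by Ighm. The part of these cell types in the result was not tested. Of 9 type 17 genes tested, Tmem176a passed (2.63 ± 0.54, adjusted p = 0.0375).

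**Figure D3:**
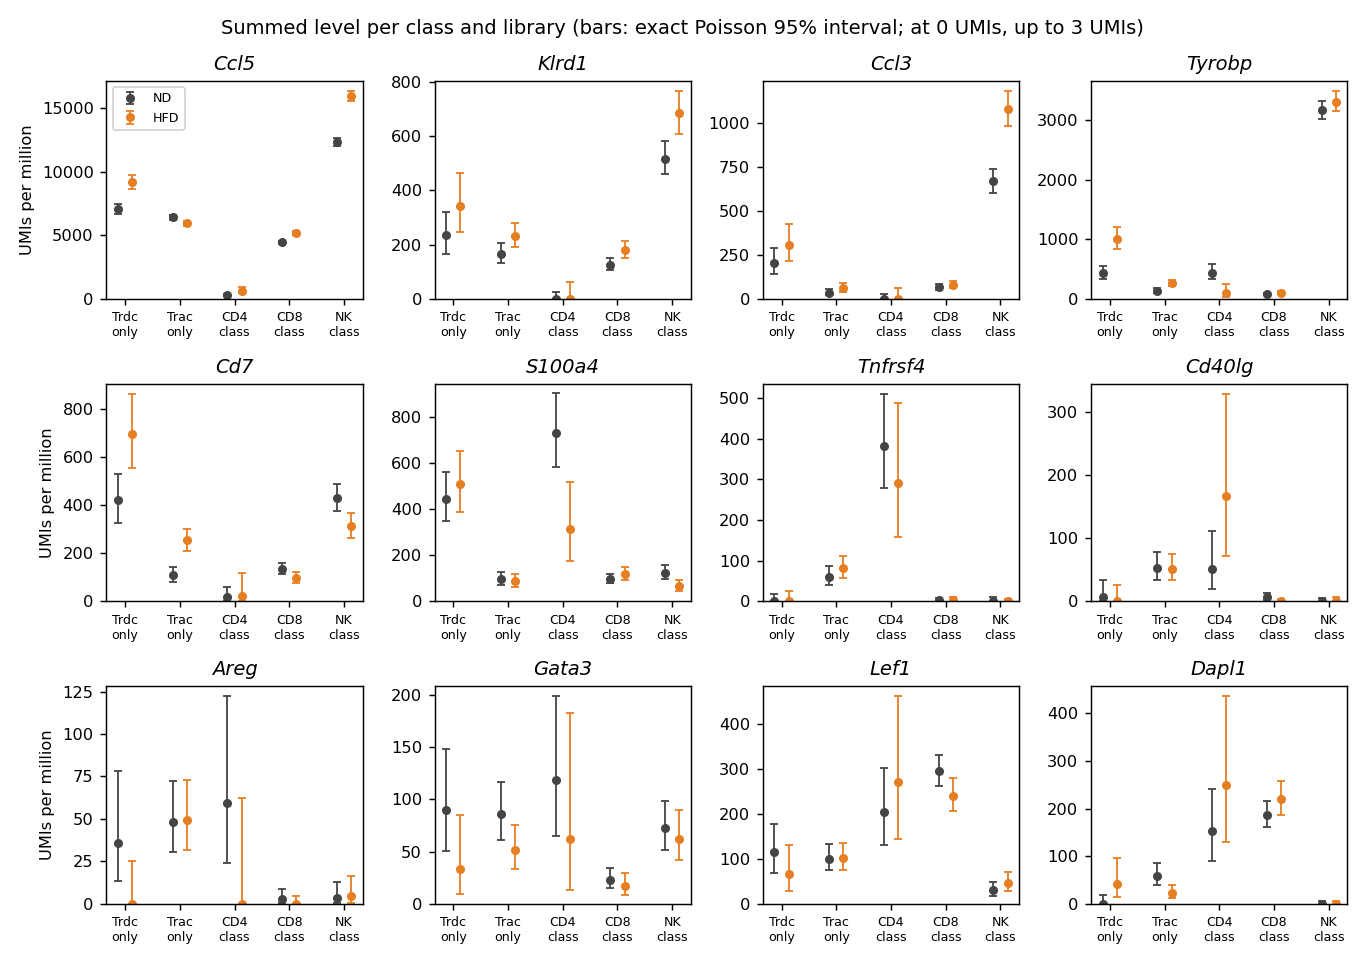
Summed level of 12 genes in UMIs per 1000000 (linear axes) in Trdc-only and Trac-only DN cells, CD4-class, CD8-class and NK cells, 1 point per library (ND, HFD) with exact Poisson 95% intervals, counts of 0 drawn up to 3 UMIs. Ccl3, S100a4 and Cd7 lie higher in Trdc-only than in Trac-only cells in both libraries, and Tnfrsf4 is at 0 in Trdc-only cells.

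Against the CD8 class, DN cells were distinguished by few genes. Of 6590 genes, 35 passed edgeR's test (0.531%), 24 higher (0.364%) and 11 lower (0.167%) in DN cells. Without the cells above 20000 UMIs in any class, 99 of 6247 passed (1.58%), 50 higher (0.8%) and 49 lower (0.784%). With each cell thinned to 1000 UMIs, 32 of 1524 passed (2.1%), 10 higher and 22 lower. The balance of directions thus differed between these settings, and the cause was not tested. Higher were Tnfrsf4 (51 and 42 UMIs against 2 and 2, 4.58 ± 0.47, adjusted p = 0.000173), Areg (59 against 3 UMIs over both libraries, a ratio of 23.4 with a counting interval of 7.63 to 117, adjusted p = 0.0149) and Cd40lg (3.60 ± 0.68, adjusted p = 0.0334). These 3 genes were also higher in the Trac-only subset on its own against the CD8 class, with log2 fold changes of 4.67, 4.67 and 3.71. In that comparison 25 of 5864 genes passed (0.426%), or 0.975% without the cells above 20000 UMIs. Areg was carried by 20 DN cells and by 1 CD8-class cell.

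The innate-like genes Klrb1c and Tyrobp were higher in DN than in CD8-class cells as well, Klrb1c at 62.6 and 66.4 UMIs per 1000000 against 7.02 and 18.5 (2.29 ± 0.35, adjusted p = 0.0086). Both are in the NK list, of which 2 of 9 genes tested were called and the median was 1.40. The list stood at 690 UMIs per 1000000 in ND and 1246 in HFD DN cells, led by Tyrobp and Fcer1g, against 391 and 740 in the CD8 class, and the part of NK cells was not tested. The transcription factors Gata3, Maf and Ahr were higher too, of which Gata3 stood at 83.9 in ND and 45.8 in HFD against 23.1 and 17.1 (1.57 ± 0.31, adjusted p = 0.0388), Maf had a log2 fold change of 1.78 ± 0.31 (adjusted p = 0.0164) and Ahr one of 2.43 ± 0.50 (adjusted p = 0.0472). Tnfrsf18 (GITR), a receptor of regulatory T cells, was higher by 1.16 ± 0.24 (adjusted p = 0.0431). By list, 3 of 8 type 17 genes tested rose (Maf, Capg and Tmem176a), 2 of 5 type 2 genes (Gata3 and Areg), 2 of 11 residency genes (Ahr and Litaf), 2 of 6 regulatory T genes (Tnfrsf4 and Tnfrsf18) and 2 of 6 bone-active cytokines (Areg and Cd40lg), and none of these fell. The list medians were 1.45, 0.56, 0.84, 2.67 and 1.42 against 0.02 over all genes. Car1, Car2 and C1qtnf12 were also called, but Car2 had an adjusted p of 0.453 without the cells above 20000 UMIs and the other 2 genes were then too low to be tested.

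Of the genes lower in DN than in CD8-class cells, some were T cell genes. Lef1, a transcription factor of naive T cells, stood at 112 UMIs per 1000000 in ND and 109 in HFD against 295 and 241 (−1.39 ± 0.22, adjusted p = 0.0086). Dapl1, also known from naive CD8 T cells, stood at 57.2 and 38.4 against 188 and 221 (−2.19 ± 0.27, adjusted p = 0.00168). Cmah and Fam241a were lower by −1.51 and −2.18. Both naive genes that passed, of 14 tested, were lower, and the list had a median of −0.31. Others were genes of connective tissue cells: Gsn stood at 41.3 and 44.3 against 442 and 175 (−2.85 ± 0.31, adjusted p = 0.000245) and Igfbp6 at 18.6 and 8.86 against 150 and 181 (−3.68 ± 0.37, adjusted p = 0.000158, or −5.09 without the cells above 20000 UMIs). Of the mesenchymal list, 4 of 6 genes tested had log2 fold changes above 0 with all cells (median 0.85, none called), and 0 of 6 without the cells above 20000 UMIs, when 5 fell (median −3.53). The list stood at 42.7 UMIs per 1000000 in ND DN cells without the 2 deep cells and 148 in HFD, against 915 and 1097 in the CD8 class without its cells above 20000 UMIs. Its most abundant gene in the CD8 class was Dcn, found in 15 of 130 and 17 of 86 cells, and Pdgfra was at 0 in DN cells. The part of such cells in the result was not tested.

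Against the CD4 class of 30 cells, DN cells had more RNA of cytotoxic genes. Of 6590 genes, 80 passed (1.21%), 67 higher (1.02%) and 13 lower (0.197%) in DN cells, and without the cells above 20000 UMIs 2.15% passed. For the Trac-only subset alone, 1.77% of 5864 genes differed from the CD4 class. Of 24 type 1 and cytotoxic genes, 11 rose and none fell, with a list median of 4.59 against 0.15 over all genes. That median is no exact fold, since it includes fitted values of genes at 0 in the CD4 class. One of these was Ccl3, at least 5.04-fold higher in DN cells. Ccl5 stood at 6329 and 6462 UMIs per 1000000 in DN cells and at 288 and 624 in the CD4 class (4.19 ± 0.18, adjusted p = 5.99e-09), and Nkg7 at 723 and 1071 against 203 and 520 (1.69 ± 0.21, adjusted p = 0.000973). Several NK receptor genes were at 0 in the CD4 class, so that only a bound can be given: Klrd1 was at least 11.6-fold higher (300 UMIs, adjusted p = 0.000511), Klra7 at least 8.64-fold, Klrc1 at least 8.29-fold and Klre1 at least 7.98-fold. Ikzf2 (Helios) rose by 3.01 ± 0.46 (adjusted p = 0.00509). Lower in DN cells were Tnfrsf4 (−2.15 ± 0.32, adjusted p = 0.00349), the integrin gene Itgb1 (−1.47 ± 0.23, adjusted p = 0.00509), Hif1a (−1.45 ± 0.27, adjusted p = 0.0184) and Cd5, a damper of receptor signaling (−1.24 ± 0.28, adjusted p = 0.0476), which turned to 0.78 with cells thinned to 1000 UMIs (adjusted p = 0.833). Markers of other cell types moved with this contrast. All 9 genes tested of the NK list had log2 fold changes above 0 (median 4.91) and 2 passed, Klre1 and Klrb1c. Genes at 0 in the CD4 class, these 2 included, could only lie above 0, so the signs and the fitted median decide nothing for them. Summed, however, that list was not higher in DN cells in both libraries. It stood at 690 UMIs per 1000000 in ND and 1246 in HFD DN cells, against 805 and 104 in the CD4 class, where 3 of 10 genes were detected in ND and 1 of 10 in HFD, led by Tyrobp. Of 9 genes of the monocyte list, 2 lay above 0 (median −2.47) and Cd14 fell, with 9 UMIs against 34. The monocyte list, led by Lyz2 in ND and Ctss in HFD, stood at 3890 and 166 in the CD4 class, against 99.8 and 465 in DN cells. Of 6 erythroid genes tested 2 were called higher, and all 6 mesenchymal genes tested lay above 0 with none called. Car2 was called with all cells (adjusted p = 0.0452) but not without the cells above 20000 UMIs (adjusted p = 0.121). The part of these cell types in the result was not tested. Among DN cells and the CD4 and CD8 classes, Tnfrsf4 was highest in the CD4 class (381 and 291 UMIs per 1000000), intermediate in DN cells (67.9 and 62.0) and lowest in the CD8 class (2.01 and 2.85).

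Against NK cells 481 of 6590 genes differed (7.3%), 281 higher (4.26%) and 200 lower (3.03%) in DN cells. The T cell side was carried by Il7r, at 242 and 250 UMIs per 1000000 against 19.9 and 8.91 (4.21 ± 0.33, adjusted p = 2.06e-06), by Bcl11b, the T cell commitment factor (4.60 ± 0.42), and by Cd5 and Cd40lg, which had 155 and 70 UMIs in DN cells and 0 in NK cells. The chemokine receptor Cxcr6, a receptor of tissue lymphocytes, rose by 3.21 ± 0.49 (adjusted p = 0.000684), but its lists were mixed. Of 11 tissue residency genes 2 rose and 3 fell (median −0.22), and of 13 chemokine and homing receptor genes 3 rose and 4 fell (median −0.36). The T cell receptor list had 9 of 15 genes higher and none lower, and the naive list 8 of 14. Conversely, 17 of 24 type 1 and cytotoxic genes were lower in DN cells and none higher, with a list median of −1.36. Among the granule proteases, Gzma stood at 35.9 and 5.91 against 4828 and 8451 UMIs per 1000000 (−7.94 ± 0.71, adjusted p = 8.37e-06, or −9.14 without the cells above 20000 UMIs), Gzmb at 13.3 and 17.7 against 614 and 706 (−5.24 ± 0.53, adjusted p = 2.19e-05), and Cma1 had 0 against 175 UMIs, at least 83.1-fold lower. Ccl5 and Nkg7 differed less, by −0.93 ± 0.14 and −1.60 ± 0.16. Markers of other cell types moved with this contrast as well: Irf8, of the dendritic list, fell by 4.94, H2-Aa, of the B cell list, by 3.51, and Cd14, of the monocyte list, by 3.10. The monocyte list had 1 of 9 genes above 0 (median −0.89) and stood at 99.8 and 465 UMIs per 1000000 against 1183 and 105 in NK cells, led by Lyz2. The part of these cell types in the result was not tested. DN cells combined Ccl5, Nkg7 and Klr receptor transcripts with granzyme transcripts that were low beside NK cells. Against the CD8 class, Ccl5, Nkg7, Klrd1 and Gzma did not pass the test, whereas Klrb1c was higher in DN cells. The combination is thus not shown to be particular to DN cells.

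Between diets, log2 ratios (HFD over ND) were taken from summed UMIs over 5710 genes with at least 20 UMIs in DN cells, with 0.5 added to each count. A ratio past 1 in size was reached by 465 genes (8.14%), 182 higher (3.19%) and 283 lower (4.96%) in HFD. The 2 deep ND cells moved this count: without them 331 of 5297 genes (6.25%) passed, 210 higher (3.96%) and 121 lower (2.28%). Car1 (434 to 1 UMIs), Rhd (56 to 0), Col1a1 (683 to 8), Col1a2 (305 to 3) and Mmp13 (112 to 1) were lowest in HFD, and the 2 cells held 433, 56, 679, 302 and 111 of the ND UMIs. At the other end, C1qa (0 to 57) and C1qb (1 to 68), complement genes of macrophages, came almost wholly from 1 HFD cell with 56 and 68 UMIs. Top2a (9 to 51), Mki67 (10 to 46) and Cenpf (10 to 42), genes of dividing cells, had 28, 28 and 38 of their HFD UMIs in the HFD cell with 66 Trdc UMIs. For each of these 10 genes, 1 or 2 cells held over 50% of the UMIs of the library in which it was higher. The genes were chosen as the 5 highest and 5 lowest ratios among genes with at least 50 UMIs.

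Immediate-early and heat-shock genes, which respond to activation and to tissue dissociation, were lower in HFD as a group. All 20 had ratios below 0, their summed level was 18987 UMIs per 1000000 in ND and 13871 in HFD (log2 ratio −0.45, counting interval −0.49 to −0.42), and without the 2 deep cells the ratio was −0.58, with 1 of 20 above 0. Hspa1a had 1311 UMIs in ND and 599 in HFD (−0.98, −1.12 to −0.84) and Jun 613 and 365 (−0.60). The sum was lower in HFD in Trdc-only cells (−0.67) and in Trac-only cells (−0.39). The same list stood at −0.86 in the CD8 class and −0.66 in B cells, and at −0.08 in NK cells, so the shift was not particular to DN cells. The contributions of digestion and of diet to it cannot be told apart with 1 library per diet. Klf2, a transcription factor that controls T cell egress, had 1794 and 868 UMIs (−0.90, −1.02 to −0.78), −0.95 in Trdc-only and −0.82 in Trac-only cells, beside −1.34 in the CD8 class, −0.998 in B cells and 0.06 in NK cells. The naive and recirculating list, in which Klf2 had the most UMIs, had a summed ratio of −0.34 with 9 of its 14 genes above 0.

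Ccl4 had 495 UMIs in 32 ND cells and 131 in 21 HFD cells (−1.76, −2.06 to −1.49), while Ccl5 (0.03) and Ccl3 (0.24) were close to equal. Ccl4 was lower in HFD in both Trdc-only (−1.70) and Trac-only cells (−1.19), and its ratio was −0.99 in the CD8 class and −0.07 in NK cells. The type 1 and cytotoxic list as a whole had a summed ratio of 0.15 (0.11 to 0.20), which was −0.02 without the 2 deep cells. On the scale of summed UMIs, Eomes (25 to 57 UMIs, 18 against 28 cells, 1.32, 0.64 to 2.08), Xcl1 (465 to 781, 0.90) and Nkg7 (543 to 725, 0.57) were higher in HFD. The NK receptor adaptors Fcer1g (163 to 310, 1.08, 0.80 to 1.36) and Tyrobp (165 to 256, 0.78) were also higher. Of the 10 genes of the NK list, 7 were detected in ND and 9 in HFD DN cells, Ncr1 being at 0 by the rule, and the list stood at 690 UMIs per 1000000 in ND and 1246 in HFD. The part of NK cells in these values was not tested.

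The interferon-stimulated list was higher in HFD, with 11 of 14 genes above 0 and a summed ratio of 0.66 (0.51 to 0.82), or 0.54 without the 2 deep cells. The ratio was 0.69 in Trdc-only and 0.79 in Trac-only cells, beside 0.09 in the CD8 class, −0.26 in NK cells and 0.23 in B cells. These differences between classes were not tested. Ifi27l2a, the most abundant of the list in HFD, had 131 UMIs in 46 ND cells and 302 in 44 HFD cells (1.35, 1.05 to 1.66), of which 95 lay in 1 HFD cell. Among bone-active cytokines, Ifng had 127 and 96 UMIs (−0.25), Tgfb1 101 and 90 (−0.02), Areg 32 and 27 (−0.09), Cd40lg 33 and 37 (0.31), and Tnfsf11 (RANKL) 5 and 4 UMIs, found in 2 ND and 3 HFD cells. Gata3 (63 to 31 UMIs, −0.86, −1.54 to −0.23) and Ahr (49 to 19, −1.19, −2.06 to −0.43) were lower in HFD. Trdc itself had 352 and 260 UMIs (−0.29, −0.52 to −0.05), beside the Trdc-only shares given above. The 2 deep ND cells held no Trdc UMI. Without them the ND total was 633050 and not 751262 UMIs, which puts the Trdc ratio further below 0.

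**Figure D4:**
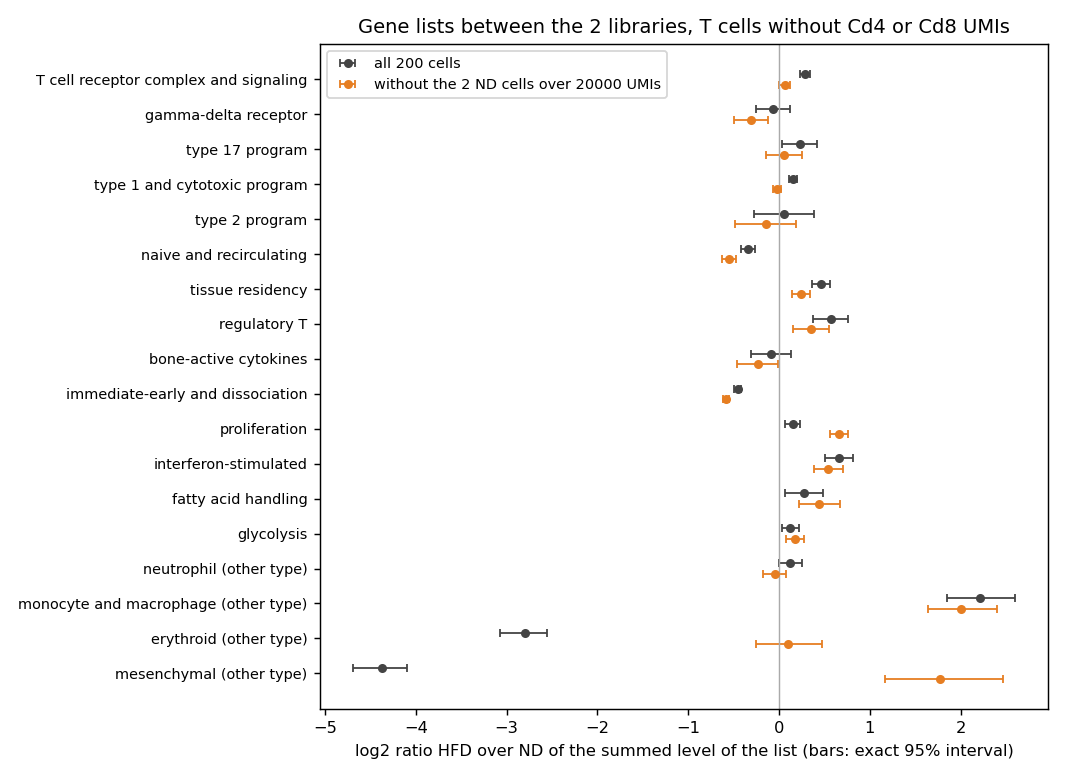
Summed log2 ratio of HFD over ND of 18 gene lists in DN cells with 95% counting intervals, over all 200 cells and without the 2 ND cells above 20000 UMIs. The immediate-early list lies below 0 and the interferon-stimulated list above 0 in both, whereas the type 1, type 2, neutrophil, erythroid and mesenchymal lists change sign.

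Markers of other cell types varied between the libraries as follows. Without the 2 deep cells, the erythroid list stood at 190 UMIs per 1000000 in ND and 204 in HFD, with Hbb-bs as its most abundant gene and Alas2 at 0. The neutrophil list stood at 1466 and 1416, led by S100a9, and the B cell list at 269 and 310, led by Ighm. The mesenchymal list stood at 42.7 and 148 and was led by Dcn, of which 1 HFD cell held 51 UMIs, with 5 of 8 genes detected in ND, 7 of 8 in HFD and Pdgfra at 0 in both. The monocyte list stood at 115 and 465, with 7 and 10 of 10 genes detected and Lyz2 in the lead, and 1 HFD cell held 218 of its 315 UMIs.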

How the data were processed

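The authors deposited raw counts, whole numbers of UMIs per gene and barcode, as 1 matrix per diet listing 32285 genes and made with Cell Ranger 6.0.1 on mm10 according to the submitters' processing notes. Gene coordinates are those of the GENCODE annotation of the same build. Groups came from the diet labels, and barcodes could not be assigned to mice. The members and gene lists were chosen with earlier results of these data known.

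Cells were selected by the UMI rule given above in Python 3.11.15 (numpy 2.4.6, pandas 2.3.3, scipy 1.17.1). Cells called as doublets by Scrublet in scanpy 1.11.5 (9 ND and 23 HFD, 0.149% and 0.370% of kept cells, no DN cell) were kept in, because with so few calls doublets could not be judged. Shares have exact Clopper-Pearson and levels exact Poisson 95% intervals, and a count of 0 was taken to allow 3. The Cd4, Cd8, CD3, Ncr1, Cd79a, S100a8 and S100a9 genes of the rule, and Trdc and Trac where they defined the subsets, were left out of counts of calls. Cell classes were compared in edgeR 4.0.16 (R 4.3.3; TMM, filterByExpr, quasi-likelihood test) on UMIs summed per library and class, with the library as a block. DESeq2 1.42.0 served as an alternative. The tests were checked on simulated data. Levels of different genes were not compared per length.

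The named genes of each tested contrast are among the 10 highest and 10 lowest log2 fold changes at an adjusted p below 0.05, with the same sign in both libraries and at least 50 UMIs, or belong to the gene lists. Between diets they are the 5 highest and 5 lowest ratios at 50 UMIs or more, and list members. Cell states with 2 genes counted together, Ly6c2 and Klra7 included, were chosen after values had been seen. Scaling by TMM moved the diet ratios by 0.0012 (log2) in DN cells.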

Additional observations from a re-analysis of the deposited data

Results flagged for a closer look

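For 5 gene lists, the summed log2 ratio of HFD over ND had opposite signs in Trdc-only and Trac-only cells, each with a counting interval that did not include 0. The differences were not tested, since each diet is 1 library. In Trdc-only cells the ratio was −0.401 for the T cell receptor complex (0.40 in Trac-only cells), −0.636 for the type 17 program (0.58), −0.744 for the CD8 lineage (0.55), −1.01 for B cell markers (0.71) and 0.867 for proliferation (−0.15). Without the ND cell of 97306 UMIs, the Trac-only ratio was 0.08 for the T cell receptor complex, 0.28 with an interval spanning 0 for the type 17 program, and 0.67, thus of the same sign as in Trdc-only cells, for proliferation. One HFD cell held 362 of the 602 proliferation UMIs of HFD Trdc-only cells. Without it, a comparison added after seeing the data, their ratio was −0.29 (−0.52 to −0.06).

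Outside the population, a Trdc signal was present among barcodes left out for an Ncr1 UMI alone. Of 14 such barcodes, 9 had Trdc and no Trac UMI, 8 of them in ND and 1 in HFD. Of the 40 barcodes left out for S100a8 and S100a9 alone, 1 had Trdc and no Trac UMI, 10 had Trac and no Trdc UMI, and 29 had neither.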

How the results depend on the processing

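With each cell thinned to 1000 UMIs before selection, DN cells were 1.02% (ND) and 0.745% (HFD) of kept cells and 83.6% and 78.0% of CD3-gated cells, so the lack of a coreceptor UMI depends on depth. Of the 61 ND and 46 HFD DN cells so selected, 23.0% and 6.52% were Trdc-only, 32.8% and 41.3% Trac-only, 0% and 2.17% had both transcripts, and 44.3% and 50% had neither. Defined by Trdc or Tcrg-C without Trac or Trbc, γδ cells were 0% in both libraries, because each DN cell had a Trbc UMI. A CD3 minimum of 2 or 5, called doublets removed, over 200 genes, S100 under 0.5% and at least 2 Trdc UMIs moved no share beyond its interval.

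Without the filter on low counts, genes called numbered 279 (DN against CD4 class) and 190 (DN against CD8 class) of 15284 tested, or 1.83% and 1.24%, and 97 (Trdc-only against Trac-only), 251 (Trac-only against CD4 class) and 151 (Trac-only against CD8 class) of 15145, or 0.64%, 1.66% and 0.997%. The 190 were 92 higher and 98 lower in DN cells, and the 97 were 40 higher and 57 lower in Trdc-only cells. With cells thinned they numbered 12 (DN against CD4), 32 (DN against CD8) and 278 (DN against NK) of 1524 tested, or 0.787%, 2.1% and 18.2%. The 32 were 10 higher and 22 lower in DN cells. Thinned counts for the subsets were 4 (Trdc-only against Trac-only), 7 (Trac-only against CD4) and 3 (Trac-only against CD8) of 1337, or 0.299%, 0.524% and 0.224%. DESeq2 called 21 (DN against CD8), 12 (Trdc-only against Trac-only) and 10 (Trac-only against CD8). Without the library block 20 (DN against CD8) and 10 (Trdc-only against Trac-only) were called. Without cells above 20000 UMIs, an alternative chosen after seeing the data, 134 (DN against CD4), 99 (DN against CD8), 29 (Trdc-only against Trac-only) and 54 (Trac-only against CD8) were called. Of the named genes of tested contrasts, Cd5 (DN against CD4) was at 0.78 with cells thinned and Car2 (Trac-only against CD8) at −0.092 without the cells above 20000 UMIs. Over all alternatives, 221 values of named genes in tested contrasts lost their call and 1667 kept direction and call. The latter include the values with called doublets removed, which could not change, since no cell of the classes compared was called a doublet. With either library left out, which allows no test, 113 named values could not turn, since their selection required the same sign in both libraries. Of 101 others, chosen as list members, 3 turned without the ND library: Car1 ranged from −3.82 to 7.09 (DN against CD4) and from −0.68 to 7.002 (DN against CD8), and Cd14 from −5.32 to 0.11 (Trac-only against CD4).

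Between diets, 105 of 3108 genes passed a log2 ratio of 1 with at least 50 UMIs (3.38%), 990 of 7684 with at least 10 (12.9%) and 72 of 1194 with cells thinned (6.03%). Thinned, 42 were higher and 30 lower in HFD, and at equal weights of the subsets 298 were higher and 305 lower. With cells thinned the type 17 list was at −0.10 and the homing receptor list at −0.055. Without the 2 deep cells the homing receptor list was at −0.0723, the type 1 list at −0.0198, the erythroid list at 0.10 and the mesenchymal list at 1.77. With Trdc-only and Trac-only cells at equal weights, which leaves out the Col1a1-rich cell, Col1a2, Col1a1 and Mmp13 were at 0.31, 0.0896 and 0.84. The cause of the other changes was not tested.

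No paired analysis was possible because the labels' replicate numbers cannot be assigned to barcodes in the 1 pooled matrix per diet. With 1 library per diet, intervals cover counting error only, and with 16 to 68 Trdc-only or Trac-only cells per library, single cells decide low genes.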

Other observations

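Some genes stood apart between the libraries once the 2 deep ND cells were set aside, and were noticed only after their values had been seen. Hspb1, a small heat-shock protein gene, had 175 UMIs in 14 ND cells, of which 103 lay in 1 cell, and 12 in 5 HFD cells. Il1b had 44 and 6 UMIs, with 23 of the ND UMIs in 1 cell. Atf3, a stress-response factor of the immediate-early list, had 128 UMIs in 23 ND cells and 28 UMIs in HFD. Fam169b had 38 UMIs spread over 28 ND cells, at most 3 per cell, and 13 UMIs in HFD.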
